A study of Mus musculus with 12 samples.

Results

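A set of 9 genes of the cardiac transcription network was followed across the outer layers of the embryonic mouse heart: Isl1, Eya1, Nkx2-5, Gata4, Gata5, Gata6, Hand1, Hand2 and Mef2c. They were chosen by name from the deposited table, and 9 of 9 were among its 17637 genes. The artery samples were mesothelium with the tissue just under it, peeled by forceps where the great arteries leave the heart. The ventricle samples were epicardium and subepicardium peeled from the ventricles. All embryos were wild-type CD1, an outbred mouse stock, at E16.5, with no mutation or treatment. There were 6 libraries per tissue from litters 1 to 6, and pooling within a litter leaves single embryos indistinguishable.

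Markers of epicardium and mesothelium were present in both tissues, and heart muscle, smooth muscle and blood markers were present too. Artery libraries were less alike (r of log2 values 0.910 to 0.982 between libraries) than ventricle libraries (0.978 to 0.991). Artery 1 and artery 6 were the shallowest, at 6.77 and 7.97 M reads.

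The second heart field is a pool of mesodermal progenitors that adds cells to the ends of the heart tube and so builds the outflow tract, the right ventricle and the base of the great arteries. ISL1, a LIM-homeodomain factor, marks these progenitors and is switched off in most of them as they become heart muscle. NKX2-5 (a homeodomain factor), the zinc finger proteins GATA4, GATA5 and GATA6, the helix-loop-helix proteins HAND1 and HAND2 and the MADS-box factor MEF2C bind one another and shared enhancers to switch on heart genes, and several of them are also used in smooth muscle, epicardium or endothelium.

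The RNA of 5 of the 9 genes differed between the layers. Isl1, Gata5 and Gata6 were higher in artery, Gata4 and Nkx2-5 were lower, and Hand1, Hand2 and Mef2c did not pass the test. The remaining gene, Eya1, lay below the minimum level for testing, so that 8 of 9 were tested. The 3 GATA genes thus split: Gata5 was 1.99-fold and Gata6 1.23-fold the ventricle mean in artery, while Gata4 was at 0.588 of it. The test was limma on log2(value + 1) with Benjamini-Hochberg adjustment over 14779 genes and a threshold of 0.05. It took the libraries as unpaired, with no term for litter. Values are the authors' normalized signal, which is a CPM of a scaled library size. The count was 3 higher and 2 lower of 8 tested, or 62.5% called, against a background of 24.1% of tested genes called, 12.2% higher and 11.8% lower in artery. The 9 genes were picked with earlier results of these data in view, so nothing about the group follows from that count. Values of 4 genes (Isl1, Gata4, Gata6 and Nkx2-5) did not overlap between the 6 artery and 6 ventricle libraries, as held for 11.9% of tested genes. The median difference over the 8 tested genes was 0.19 on the log2 scale, against -0.040 over all tested genes. These layers are bulk tissue, in which fewer cells of a type and less RNA per cell cannot be told apart.

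Sequence just before the start site is shown for the genes whose differences were largest in each direction and are in the RefSeq promoter table for GRCm38.p6 (5 of 9 genes matched), with Hand2 as a gene that did not pass. Each run is the 250 bases that end at the base before the start site, 5′ to 3′ on the gene's strand, by the RefSeq start. GENCODE, from which the gene spans given with each gene are taken, begins Nkx2-5 further upstream through a longer isoform, so that this window lies inside the GENCODE span, and it also begins Gata5 a few bases upstream. The windows are chr13:116309689-116309938 (minus strand) for Isl1, chr2:180334680-180334929 (minus strand) for Gata5, chr17:26841566-26841815 (minus strand) for Nkx2-5 and chr8:57320733-57320982 (plus strand) for Hand2. Capitals mark matches, on either strand, to the GATA letters AGATAA and TGATAA, each also with G as its last letter, and to the NKX core AAGTG.
Isl1: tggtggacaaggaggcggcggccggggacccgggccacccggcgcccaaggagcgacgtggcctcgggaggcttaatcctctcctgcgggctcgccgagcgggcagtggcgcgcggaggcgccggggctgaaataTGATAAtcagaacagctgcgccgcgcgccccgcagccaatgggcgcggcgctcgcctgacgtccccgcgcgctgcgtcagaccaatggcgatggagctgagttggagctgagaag
Gata5: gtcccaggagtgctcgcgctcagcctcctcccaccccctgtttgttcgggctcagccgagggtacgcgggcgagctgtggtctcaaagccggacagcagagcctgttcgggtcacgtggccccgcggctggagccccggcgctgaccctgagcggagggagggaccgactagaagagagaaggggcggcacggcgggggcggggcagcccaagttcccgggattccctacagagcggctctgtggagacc
Nkx2-5: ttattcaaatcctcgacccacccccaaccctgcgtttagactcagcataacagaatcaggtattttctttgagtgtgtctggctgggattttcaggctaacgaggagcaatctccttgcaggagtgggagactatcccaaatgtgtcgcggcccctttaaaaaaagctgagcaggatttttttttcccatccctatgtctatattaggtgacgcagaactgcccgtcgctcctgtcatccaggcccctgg
Hand2: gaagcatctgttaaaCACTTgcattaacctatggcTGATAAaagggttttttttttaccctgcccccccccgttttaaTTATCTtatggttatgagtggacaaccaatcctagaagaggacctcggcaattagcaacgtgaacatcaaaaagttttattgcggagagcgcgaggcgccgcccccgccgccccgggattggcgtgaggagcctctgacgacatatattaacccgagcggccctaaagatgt

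The Isl1 window held 1 GATA match, which starts 115 bases before the start site. The Hand2 window held 2 GATA matches, at 215 and 172 bases before the start site, and 1 NKX match at 235. The windows of Gata5 and Nkx2-5 held 0 matches to these letters. Among all 32851 windows of the same length in the table, 26.5% held a GATA match and 40.7% an NKX match, so that a match is common. A MEF2 motif was also searched, which 3.20% of all windows and 0 of these 4 held. The Isl1 and Gata5 windows were rich in G and C, at 71.2% and 70.0% of bases, against 49.2% in each of Nkx2-5 and Hand2 and a median of 52.4% over all windows.

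**Figure D1:**
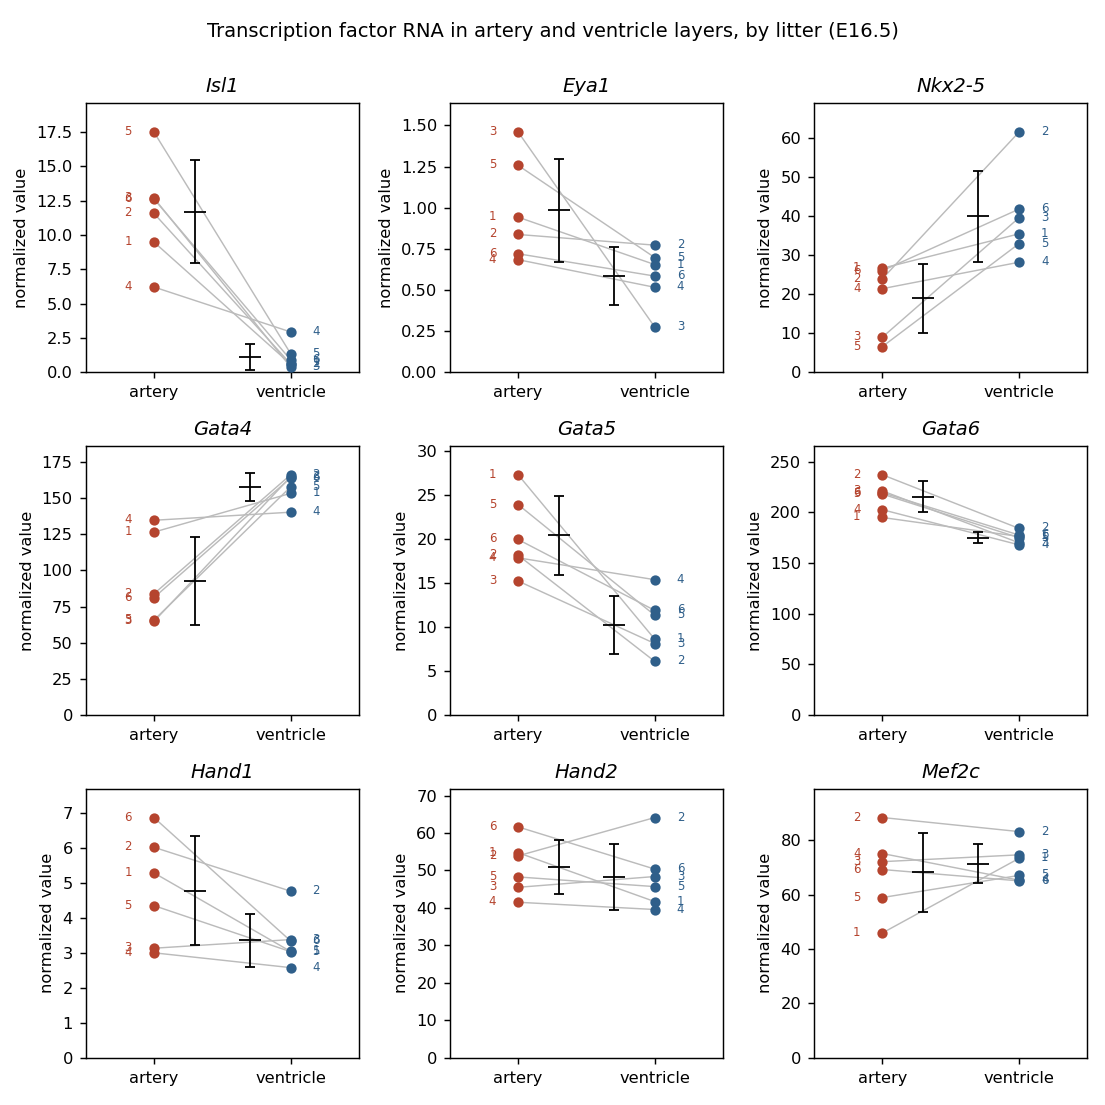
Normalized value (linear axis from 0) of each gene in the 6 artery and 6 ventricle libraries, with grey lines joining the libraries of a litter, litter numbers beside the points, and black bars for the mean ± SD. Isl1, Gata6, Gata4 and Nkx2-5 do not overlap between the groups, and in Gata5 the lowest artery value (15.3) lies just under the highest ventricle value (15.4).

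Isl1 (ENSMUSG00000042258, chromosome 13, 116298281-116309689 in GRCm38, minus strand) showed the largest difference of the 9. In artery its lowest, median and highest values were 6.22, 12.1 and 17.5, and in ventricle they were 0.396, 0.763 and 2.95. The groups did not overlap, and the artery mean was 11.7 ± 3.76 against a ventricle mean of 1.14 ± 0.948 (SD, n = 6 each), or 10.3-fold. The difference was 2.61 ± 0.27 on the log2 scale (SE, adjusted p = 1.02e-05, limma), with the same direction in 6 of 6 litters. Isl1 rested on 982 reads over the artery libraries and 118 over the ventricle libraries, down to 6 reads in ventricle 3. Because the added 1 compresses low values, the size depends on the scale: 1.42 with a pseudocount of 5 and 3.41 by edgeR on recovered reads.

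Litter 4 stood apart for Isl1. Its artery library had the lowest artery value and its ventricle library the highest ventricle value, so that its log2 difference was 0.87, against 2.72 to 3.29 in the other 5 litters. Without litter 4 the Isl1 difference was 2.96. The same litter also gave the smallest difference of the 6 for Gata4 (-0.058), Gata5 (0.20) and Nkx2-5 (-0.38). For Nkx2-5 litter 1 was practically equal (-0.40), so litter 4 did not stand apart there. In artery 4 the summed value of 10 epicardial and mesothelial markers was 3257, against 1633 to 2181 in the other artery libraries, and that of 7 smooth muscle markers was 1823, against 2477 to 3893. The part of these values in the smaller differences of litter 4 was not tested.

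Isl1 is also made in autonomic neurons, so their markers are set beside it. Of 14 such markers 8 were tested, and 5 rose and 0 fell in artery, with a summed value of 64.2 to 130 in artery and 36.2 to 46.3 in ventricle. The 5 included Stmn2, a microtubule regulator of neurons, at 14.3 ± 5.45 in artery, against 4.33 ± 0.581 in ventricle. The autonomic factor Phox2a and the noradrenaline enzyme Dbh stayed below the test's minimum. The ratio of Isl1 to the mean of the 14 markers was higher in artery by 1.79 on the log2 scale (95% interval 1.22 to 2.35, exact permutation p = 0.00216, adjusted p = 0.00379 over 7 ratios), in 6 of 6 litters. With a pseudocount of 5 that difference was 0.95, and with 0.1 it was 2.48. Uchl1, a ubiquitin hydrolase of neurons, makes up much of the marker mean and was higher in artery by 0.69 ± 0.14 on the log2 scale. Th, the first enzyme of noradrenaline synthesis, was at 2.87 ± 4.43 in artery, against 0.255 ± 0.0659 in ventricle, and did not pass (adjusted p = 0.148, limma). The part of autonomic neurons in the Isl1 difference was not tested.

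Isl2, the close paralog of Isl1 that works in motor neurons, had 206 reads over the 6 artery libraries and 4 over the 6 ventricle libraries. Its mean value was 2.55 ± 1.07 in artery, against 0.0675 ± 0.0746 in ventricle (SD, n = 6 each). It was higher by 1.68 ± 0.20 on the log2 scale (SE, adjusted p = 3.66e-05, limma). Of the 9 relatives of Isl1 and LIM-domain cofactors tested, 2 rose, 2 fell and 5 did not pass. The other that rose was Lmo1, a LIM-only protein, by 0.84 ± 0.22. Lhx2 (-0.85 ± 0.22) and Lhx9 (-0.55 ± 0.16), LIM-homeodomain factors, were lower, with their calls lost in 2 and 7 of 18 omissions of 1 library or 1 litter. Ldb1, the adaptor through which LIM factors act, was at 198 ± 20.3 in artery, against 190 ± 14.7 in ventricle and did not pass.

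Eya1 (ENSMUSG00000025932, chromosome 1, 14168954-14310235, minus strand), a coactivator and phosphatase that acts with homeodomain partners in second heart field progenitors, was near the limit of detection. Its lowest, median and highest values were 0.685, 0.890 and 1.46 in artery and 0.274, 0.620 and 0.773 in ventricle, which is 81 reads over the artery libraries and 61 over the ventricle libraries. The artery value was above the ventricle value of its litter in 6 of 6 litters, but the groups overlapped and the gene was not tested in the main fit. The mean log2 difference was 0.32. In a fit with no filter on low values Eya1 did not pass (0.32 ± 0.13, SE, adjusted p = 0.0976, limma). The list of its paralogs, Dach genes and homeodomain partners held genes that did change. Of 8 tested, 4 rose, 0 fell and 4 did not pass.

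Six2, a homeodomain partner of the EYA proteins, was at 4.26 ± 2.05 in artery, against 0.306 ± 0.223 in ventricle (SD, n = 6 each). Its difference was 1.93 ± 0.24 on the log2 scale (SE, adjusted p = 5.75e-05, limma). Eya4, a paralog of Eya1, was higher by 1.59 ± 0.22, at 6.14 ± 1.97 in artery, against 1.37 ± 0.619 in ventricle. Six4 was higher by 0.83 ± 0.14.

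**Figure D2:**
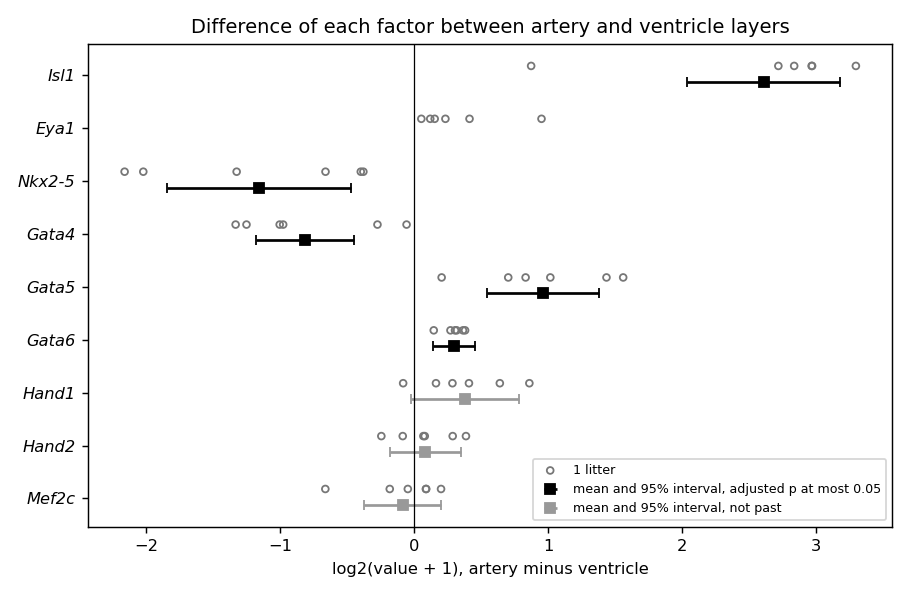
Difference of each gene on the log2(value + 1) scale, artery minus ventricle, with squares and bars for the limma estimate and its 95% interval and open circles for single litters. Isl1 stands at 2.61 and Nkx2-5 at -1.16, and 1 Isl1 litter (0.87) lies far from the others. Eya1 has litters only, since it lay below the minimum for the main fit.

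Nkx2-5 (ENSMUSG00000015579, chromosome 17, 26838664-26845009, minus strand), the homeodomain factor at the core of the heart muscle program, fell to 18.9 ± 8.85 in artery, against 39.9 ± 11.6 in ventricle (SD, n = 6 each). Artery libraries had a minimum of 6.58, a median of 22.7 and a maximum of 26.6, and ventricle libraries 28.2, 37.5 and 61.5, without overlap. Within artery, libraries 3 and 5 were low, at 8.98 and 6.58, and the other 4 lay between 21.4 and 26.6. The difference was -1.16 ± 0.32 on the log2 scale (SE, adjusted p = 0.0171, limma), lower in 6 of 6 litters. Without litter 3 it was -0.99 and no longer passed (adjusted p = 0.0755).

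Nkx2-5 moved with heart muscle RNA. Of 15 heart muscle markers 9 fell and 0 rose in artery (2 to 11 fell over the 18 omissions, with 2 without litter 3), among them the ventricular myosin light chain Myl2 at 655 ± 391 in artery, against 2084 ± 800 in ventricle. Their summed value ran from 5060 to 19063 in artery and from 14674 to 38328 in ventricle, and artery 3 and artery 5 were the lowest of the 12 libraries, as they were for Nkx2-5. The ratio of Nkx2-5 to the mean of these markers was -5.32 ± 0.207 in artery, against -5.21 ± 0.121 in ventricle on the log2 scale (SD, n = 6 each). The difference between those ratios was -0.11 (95% interval -0.33 to 0.13, exact permutation p = 0.297, adjusted p = 0.297 over 7 ratios), and its sign turned with a pseudocount of 5. The part of heart muscle in the Nkx2-5 difference was not tested. The ratio of Isl1 to Nkx2-5 was higher in artery by 3.77 (95% interval 2.45 to 5.05, exact permutation p = 0.00216, adjusted p = 0.00379), in 6 of 6 litters and without overlap (2.40 with a pseudocount of 5).

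**Figure D3:**
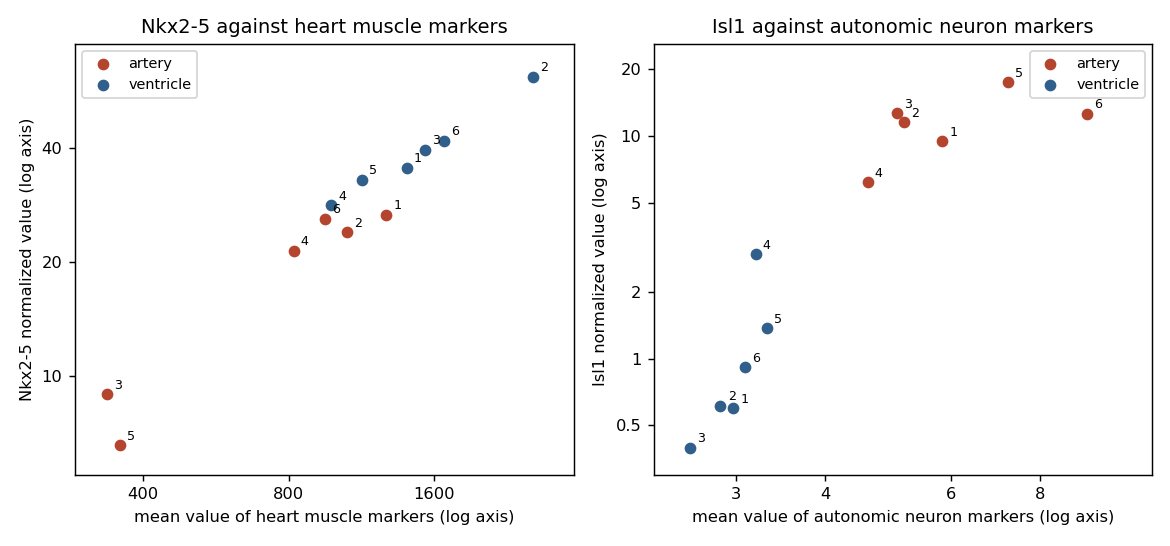
Left, Nkx2-5 against the mean value of 15 heart muscle markers, and right, Isl1 against the mean value of 14 autonomic neuron markers, 1 point per library with its litter number, both axes logarithmic. Nkx2-5 and the muscle markers are both lowest in artery 3 and 5 and highest in ventricle 2 (61.5), while the 6 artery values of Isl1 lie between 6.22 and 17.5 and those of ventricle at 2.95 or less.

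Gata4 (ENSMUSG00000021944, chromosome 14, 63198922-63271692, minus strand), a zinc finger factor of heart muscle, endocardium and epicardium, fell in artery. Its lowest, median and highest values were 64.7, 82.4 and 135 in artery and 140, 161 and 166 in ventricle. The ventricle libraries were close together, while the artery libraries formed a spread group in which artery 1 (126) and artery 4 (135) were near the ventricle range and the other 4 lay at 64.7 to 83.7. The groups did not overlap. The difference was -0.82 ± 0.17 on the log2 scale (SE, adjusted p = 0.00352, limma), lower in 6 of 6 litters. Leaving out artery 1 and artery 4, its highest artery values, could only enlarge the fall, to -1.09.

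Markers of the covering epithelium moved in the same direction as Gata4. Of 10 epicardial and mesothelial markers 10 fell and 0 rose in artery, with a summed value of 1633 to 3257 in artery and 2698 to 5026 in ventricle. Tcf21, a factor of the epicardium, was at 96.7 ± 13.8 in artery, against 181 ± 18.4 in ventricle, and Wt1, another epicardial factor, at 63.9 ± 32.8 and 163 ± 27.8 in those groups (SD, n = 6 each). Artery 4 and artery 1 had the highest summed values of the artery libraries, 3257 and 2181, and also the highest Gata4. Artery 5 came next in the sum, at 2002.5, but its Gata4 was 65.6, near the artery minimum. In ventricle the orders did not match, since ventricle 2 had the lowest sum (2698) and the highest Gata4 (166). The part of these cells in the Gata4 difference was not tested.

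Gata5 (ENSMUSG00000015627, chromosome 2, 180325133-180334699, minus strand), which acts in endocardium and the aortic valve in the mouse, went the other way. Its lowest, median and highest values were 15.3, 19.1 and 27.3 in artery and 6.10, 9.98 and 15.4 in ventricle. The groups met only at artery 3 and ventricle 4. Means were 20.4 ± 4.44 in artery, against 10.3 ± 3.31 in ventricle (SD, n = 6 each), so that its log2 difference came to 0.96 ± 0.19 (SE, adjusted p = 0.00291, limma), higher in 6 of 6 litters. The antisense gene Gata5os, which overlaps Gata5, was at 0.328 ± 0.256 in artery, against 0.205 ± 0.143 in ventricle, and at most 0.798 in any library.

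Gata6 (ENSMUSG00000005836, chromosome 18, 11052064-11085635, plus strand), a factor of vascular smooth muscle and outflow tract neural crest, had the smallest difference of the 5 called genes. Its lowest, median and highest values were 195, 219 and 237 in artery and 168, 176 and 184 in ventricle. These ranges did not overlap, and the spread within each group was small, with a coefficient of variation of 6.91% in artery and 3.30% in ventricle. The difference was 0.30 ± 0.07 on the log2 scale (SE, adjusted p = 0.0102, limma), higher in 6 of 6 litters. Without litter 3 it was 0.28 and no longer passed (adjusted p = 0.0622). Of 7 smooth muscle markers 7 rose in artery, with a summed value of 1823 to 3893 in artery and 482 to 763 in ventricle. The part of smooth muscle in the Gata6 difference was not tested. A noncoding gene on the opposite strand whose span overlaps that of Gata6, 1010001N08Rik, was at 20.1 ± 6.17 in artery, against 14.1 ± 1.26 in ventricle. Without strand, reads from bases that both genes share cannot be told apart, and how much exon they share was not measured.

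The balance among the GATA genes therefore differed between the layers. The ratio of Gata5 to Gata4 was higher in artery by 1.77 on the log2 scale (95% interval 1.15 to 2.39) and that of Gata6 to Gata4 by 1.11 (95% interval 0.51 to 1.55). Both had exact permutation p = 0.00216, the smallest that 924 assignments allow, adjusted p = 0.00379 over 7 ratios, 6 of 6 litters in that direction and no overlap. Those assignments do not keep the litter pairs. By an exact test that flips the signs of the litter differences, both had adjusted p = 0.0365. In ventricle the Gata6 to Gata4 ratio stayed within 0.046 to 0.26, while in artery it ran from 0.59 to 1.76. A ratio within a library hardly depends on how libraries were scaled, apart from the added 1.

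**Figure D4:**
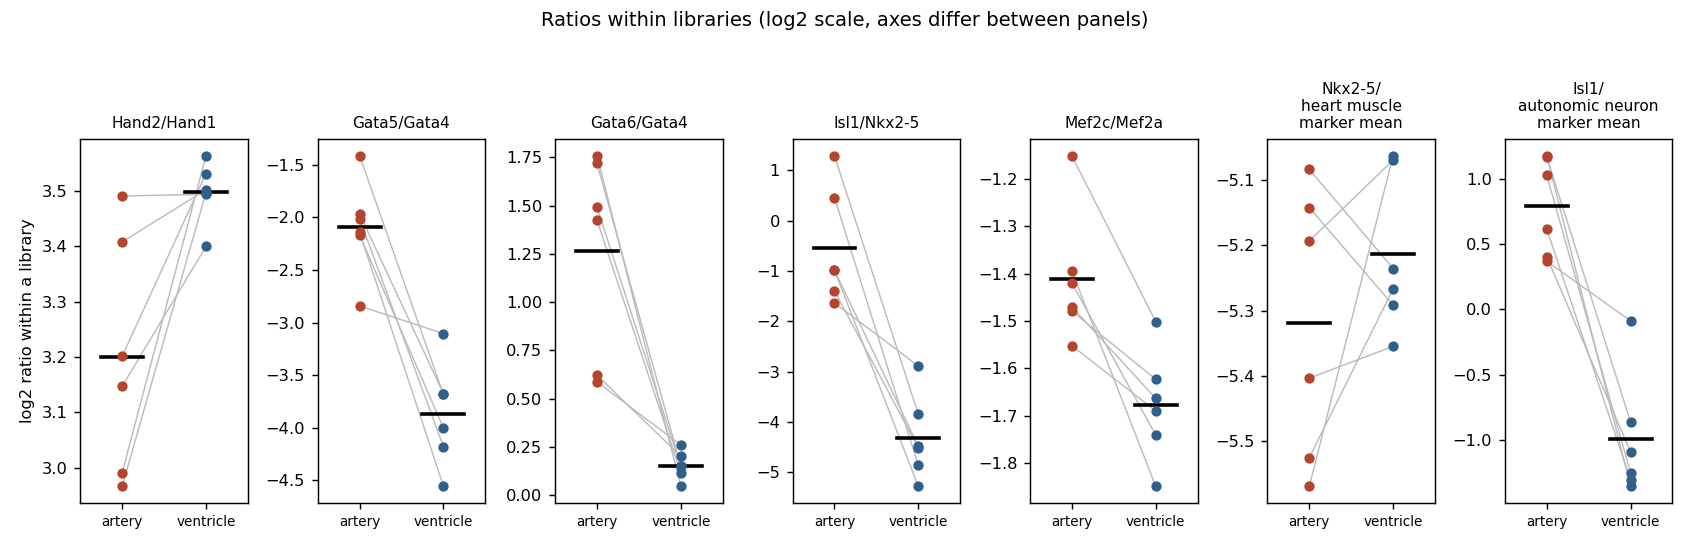
Log2 ratio within each library for 7 pairs, with artery left of ventricle, grey lines joining the libraries of a litter and black bars for group means; axes differ between panels. The Gata5/Gata4, Gata6/Gata4, Isl1/Nkx2-5 and Isl1/autonomic neuron ratios do not overlap between groups, and the Nkx2-5/heart muscle ratio does (difference -0.11).

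Among the other GATA genes and their cofactors, 2 of 5 tested rose and 0 fell. Gata3, which has a role in sympathetic neurons and in lymphoid cells, was at 4.10 ± 1.28 in artery, against 1.17 ± 0.534 in ventricle (SD, n = 6 each), so that its log2 difference came to 1.23 ± 0.22 (SE, adjusted p = 0.00102, limma). Zfpm1, the FOG cofactor that binds the zinc fingers of GATA proteins, was higher by 0.50 ± 0.11, at 60.2 ± 10.5 in artery, against 41.7 ± 2.21 in ventricle. Its paralog Zfpm2, a partner of GATA4 in the mouse heart, was at 40.2 ± 6.05 in artery, against 38.3 ± 2.56 in ventricle and did not pass. Gata1 was below the test's minimum.

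Neither HAND gene passed the test. Hand2 (ENSMUSG00000038193, chromosome 8, 57320983-57324633, plus strand), which is required for the right ventricle and for neural crest of the outflow tract in the mouse, had lowest, median and highest values of 41.5, 51.1 and 61.6 in artery and 39.6, 47.0 and 64.1 in ventricle. The ranges overlapped, and the log2 difference was 0.080 ± 0.12 (SE, 95% interval -0.19 to 0.35, adjusted p = 0.678, limma). Hand2os1, a noncoding gene on the opposite strand that overlaps Hand2, was at 31.6 ± 13.3 in artery, against 28.4 ± 6.39 in ventricle. Without strand marking, reads from bases that this pair shares cannot be told apart, and how much exon they share was not measured.

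Hand1 (ENSMUSG00000037335, chromosome 11, 57828705-57832818, minus strand), the paralog known for the outer curvature of the left ventricle, had low values in both tissues. The lowest, median and highest values of Hand1 were 3.01, 4.83 and 6.88 in artery and 2.58, 3.19 and 4.77 in ventricle. It was higher in artery in 5 of 6 litters, but the difference of 0.38 ± 0.19 on the log2 scale (SE, 95% interval -0.026 to 0.78) did not pass (adjusted p = 0.168, limma). Among the ventricle libraries both HAND genes were highest in ventricle 2, which also held the most heart muscle marker RNA.

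The proportion of Hand2 to Hand1 passed a test adjusted over 7 ratios, while neither gene passed one adjusted over all tested genes. The log2 difference of the single genes was 0.38 for Hand1 and 0.080 for Hand2. Because the adjustments differ, these results do not show that the proportion changed while Hand1 and Hand2 did not. Their log2 ratio was 3.20 ± 0.214 in artery, against 3.50 ± 0.0549 in ventricle (SD, n = 6 each), a difference of -0.30 (95% interval -0.50 to -0.089, exact permutation p = 0.0108, adjusted p = 0.0126 over 7 ratios), lower in 6 of 6 litters. The groups overlapped, since artery 3 (3.49) lay within the ventricle range of 3.40 to 3.56 and artery 4 (3.41) just inside it. The difference was -0.14 with a pseudocount of 5 and -0.37 with 0.1. The ventricle ratios lay close together, but Hand1 rested on 42 to 89 reads per ventricle library. A fixed proportion therefore cannot be read from them. Hand1 itself was at 4.77 in ventricle 2 and at 2.58 to 3.38 in the other ventricle libraries.

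HAND proteins act as dimers with other helix-loop-helix proteins, of which 4 of 9 rose, 1 fell and 4 did not pass. Over the 18 omissions 3 to 7 rose and 0 to 2 fell, with 7 and 2 without artery 1. Twist2, a helix-loop-helix factor of fibroblast progenitors, was higher by 2.21 ± 0.19 on the log2 scale (SE, adjusted p = 2.12e-06, limma), at 47.8 ± 12.2 in artery, against 9.34 ± 1.94 in ventricle. Id3 (0.76 ± 0.14) and Id1 (0.44 ± 0.11), which block dimer partners from binding DNA, rose as well. Tcf4, 1 of the broadly made partners, was lower by -0.47 ± 0.14, a call lost in 7 of 18 omissions. The partners Tcf3 and Tcf12 did not pass, at 127 ± 5.16 and 109 ± 26.2 in artery, against 113 ± 4.25 and 142 ± 5.80 in ventricle.

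Mef2c (ENSMUSG00000005583, chromosome 13, 83504034-83667080, plus strand), the MADS-box factor that is a direct target of ISL1 and GATA4 in the mouse anterior heart field, did not pass the test. Mef2c had lowest, median and highest values of 45.9, 70.7 and 88.3 in artery and 65.0, 70.2 and 83.2 in ventricle, and the ranges overlapped. It was higher in 3 litters and lower in 3, with a log2 difference of -0.087 ± 0.13 (SE, 95% interval -0.38 to 0.20, adjusted p = 0.678, limma). Artery 1 was the lowest library, and without it the difference was 0.020. Its paralog Mef2a was at 183 ± 36.8 in artery, against 231 ± 27.9 in ventricle (adjusted p = 0.0675, limma). The ratio of Mef2c to Mef2a was higher in artery by 0.27 on the log2 scale (95% interval 0.11 to 0.44, exact permutation p = 0.00433, adjusted p = 0.00606 over 7 ratios), in 6 of 6 litters, with slight overlap.

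Of 11 tested MEF2 relatives and cofactors, 3 rose, 1 fell and 7 did not pass. Mamstr, a coactivator of MEF2, was at 14.4 ± 2.66 in artery, against 7.11 ± 1.27 in ventricle, so that its log2 difference came to 0.92 ± 0.15 (SE, adjusted p = 0.000495, limma). Mkl1, an SRF coactivator that responds to actin, rose by 0.47 ± 0.09, and Hdac7, a deacetylase that represses MEF2, by 0.54 ± 0.11. Hdac9, another such repressor, was lower by -0.56 ± 0.18, a call lost in 11 of 18 omissions. Myocd, the smooth and heart muscle partner of SRF, was at 29.0 ± 10.5 in artery, against 25.3 ± 9.87 in ventricle (SD, n = 6 each) and did not pass.

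Genes that act around these factors in the second heart field, and their known targets, moved both ways. Fgf10, a growth factor of the second heart field and a target of ISL1 in the mouse, was at 19.6 ± 9.50 in artery, against 1.05 ± 0.554 in ventricle, so that its log2 difference came to 3.19 ± 0.33 (SE, adjusted p = 1.17e-05, limma). In ventricle it was highest in litter 4, at 2.10, the litter in which ventricle Isl1 was highest. Nrg1, the neuregulin ligand, was higher by 0.82 ± 0.19. Of 15 tested genes in that list 4 rose, 2 fell and 9 did not pass. Hopx, a homeodomain-only protein downstream of NKX2-5, fell to 33.4 ± 12.3 in artery, against 110 ± 42.2 in ventricle (-1.69 ± 0.27), and Tbx20 was lower by -0.83 ± 0.26, a call lost in 10 of 18 omissions.

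Of 13 tested heart muscle targets 5 fell, 0 rose and 8 did not pass. Over the 18 omissions 3 to 8 fell, with 3 without litter 3 and 8 without artery 1, and DESeq2 called 2 higher and 6 lower. Irx4, which sets the ventricular type of heart muscle, was at 5.41 ± 3.52 in artery, against 26.2 ± 8.51 in ventricle, so that its log2 difference came to -2.24 ± 0.35 (SE, adjusted p = 0.000465, limma). Popdc2, a membrane protein of heart muscle, was lower by -1.33 ± 0.32. Nppa, the natriuretic peptide gene bound by GATA4 and NKX2-5, was at 127 ± 168 in artery, against 34.6 ± 16.3 in ventricle (SD, n = 6 each) and did not pass. Of 5 outflow tract targets 2 rose, Fgf10 and the semaphorin receptor Plxna2 (0.61 ± 0.15, call lost without litter 3), and 0 fell. Sema3c, a GATA6 target in outflow neural crest of the mouse, was at 193 ± 53.9 in artery, against 144 ± 31.6 in ventricle and did not pass. Over the lists 20 of 70 tested genes rose (28.6%) and 10 fell (14.3%), against 12.2% higher and 11.8% lower over all tested genes. Over the 18 omissions 17 to 23 were higher and 3 to 15 lower, with 17 and 3 without litter 3. Among genes with a mean of at least 5, 11 of 56 rose and 8 fell. The lists were chosen with earlier results of these data known, so nothing about them as a group follows from these counts. The NK2 relatives gave 0 tested genes, with 3 of 8 in the table.

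**Figure D5:**
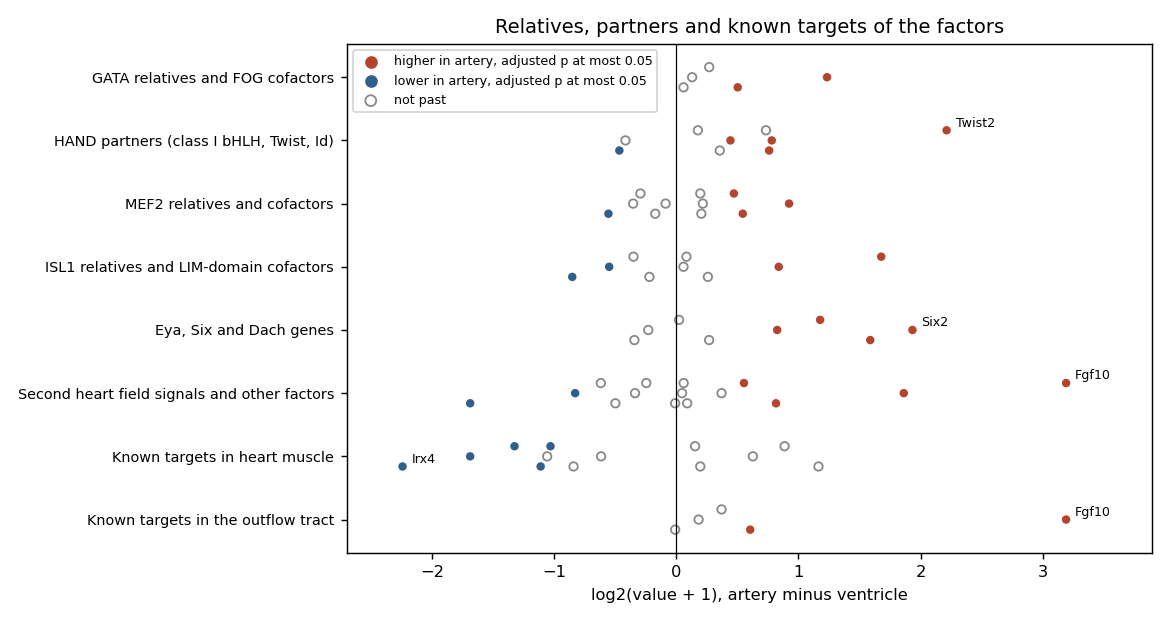
Difference of each tested gene on the log2(value + 1) scale, artery minus ventricle, in 8 lists of relatives, partners and known targets; filled points passed adjusted p 0.05 and open points did not, and the genes farthest from 0 are named. Fgf10 (3.19) and Twist2 (2.21) lie farthest right and Irx4 (-2.24) farthest left, and a gene in 2 lists is drawn in both.

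Levels of different genes were compared only per kilobase of annotated exon, since reads scale with length. In artery the order was Gata6 (33.1 ± 2.29 per kb), Gata4 (23.7 ± 7.79), Hand2 (21.7 ± 3.08), Nkx2-5 (11.0 ± 5.15), Gata5 (6.23 ± 1.36), Mef2c (4.34 ± 0.923), Isl1 (2.95 ± 0.949), Hand1 (2.39 ± 0.783) and Eya1 (0.126 ± 0.0398). Libraries of neighbours in that order overlapped except between Hand2 and Nkx2-5 and between Hand1 and Eya1. In ventricle Gata4 came first (40.4 ± 2.52 per kb), above Gata6 (26.9 ± 0.889) in every library, followed by Nkx2-5 (23.2 ± 6.76), Hand2 (20.5 ± 3.71), Mef2c (4.54 ± 0.449), Gata5 (3.13 ± 1.01), Hand1 (1.68 ± 0.374), Isl1 (0.288 ± 0.239) and Eya1 (0.0747 ± 0.0225). There the neighbours did not overlap between Gata4 and Gata6, Hand2 and Mef2c, Hand1 and Isl1, and Isl1 and Eya1, and the others did. The exon length used covers all annotated isoforms, which lowers the value for Mef2c, with 15.7 kb of exon. The place of Gata4 above Gata6 in ventricle also rests on the exon lengths used. Before division by length, Gata6 was above Gata4 in every ventricle library, with a log2 ratio of 0.046 to 0.26.

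The genes whose pattern over the 12 libraries was most like that of each factor are given as a description, by Pearson r of log2 values over 11426 genes. Those of Isl1 were Pdgfc (r = 0.990), Pde9a (0.988) and Hoxa3 (0.986), a growth factor, a phosphodiesterase and a Hox gene that were all higher in artery. Those of Nkx2-5 were Lrrc10 (0.989), Pde1c (0.988) and Got1 (0.986). Those of Gata4 were Rtn4rl1 (0.993), Llgl2 (0.985) and Gramd4 (0.977), and those of Gata6 were Synpo2 (0.974), Prkab2 (0.970) and Tmem252 (0.960). Those of Gata5 were Dync1i1 (0.952), Bace2 (0.947) and Scn3b (0.945), and those of Mef2c were Grk5 (0.950), Jak2 (0.943) and Frmd4a (0.943). For the HAND genes r was lower: Fbxl22 (0.939), Ptges3l (0.904) and Rbpms (0.900) for Hand2, and Cd59a (0.882), Dhrs7 (0.862) and Acta1 (0.861) for Hand1. Eya1 was most like Srd5a1 (0.900) and Skap2 (0.869) among the genes reported here. The libraries share the tissue difference, so that any gene with a like difference scores high.

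Sequencing lanes 1 and 2 each held both groups, with 4 and 7 libraries, and artery 6 was alone in lane 4. Within them the differences were -0.85 and -0.76 for Gata4, 0.98 and 0.94 for Gata5, 0.26 and 0.31 for Gata6 and -1.33 and -1.26 for Nkx2-5, none of which passed there. Isl1 passed within both, at 2.88 (adjusted p = 0.0397) and 2.43 (adjusted p = 0.00761, limma). With lane as a term in the fit, the calls were 3 higher and 2 lower as before.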

How the data were processed

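RNA-seq libraries were made from pools of peeled tissue, 1 artery and 1 ventricle pool per litter, with the NEBNext Ultra kit and sequenced as single reads of 50 bases, per the labels' protocols. CASAVA 1.8.2, cutadapt 1.3, RSEM 1.2.3 and GRCm38 are named in the submitters' processing notes. The tool that normalized them is not given in the sources used here. Values of the deposited table are a normalized signal made by the authors for 17637 genes and 12 libraries. Worked back, each is a whole number of reads plus 0.5, as CPM of a library size that had been scaled: 100% of 211644 values came out whole within 0.02 reads. Mean depth (± SD over 6 libraries) was 14.2 ± 5.37 M reads for artery, against 18.4 ± 2.12 M for ventricle, so low genes such as Isl1 and Eya1 rest on few reads.

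The 14779 genes that averaged 1 or more were tested with limma 3.58.1 in R 4.3.3 on log2(value + 1), trended and robust, two-sided, adjusted by Benjamini and Hochberg. On the reads recovered, edgeR 4.0.16, DESeq2 1.42.0 and limma-voom served as alternatives. edgeR called 3430 genes and limma 3556. Ratios within libraries were tested by exact permutation over 924 assignments, which do not keep the litter pairs. Intervals of ratio differences are the shifts that this test does not refuse. The fit was tested on simulated data. Litters pair the libraries, since the labels give the litter. The mean correlation of deviations from the group means was 0.215 for libraries of 1 litter (-0.014 to 0.40) and -0.043 for others. Of the 6 artery libraries, 3 were closest to the ventricle library of their own litter. Litters 2 to 5 each shared a lane, while litters 1 and 6 did not, so litter and lane are mixed in that mean. No 2 libraries of 1 group agreed within sampling noise. Each pool is another litter, so the replicates are biological.

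Coordinates and exon lengths come from GENCODE M21 (GRCm38). The genes and lists were chosen with earlier results of these data known. Named are the 9 genes, from each list the genes called with the smallest p (at most 3 each way), and the 3 genes most like each factor; others named from the lists were chosen after their values were seen, and some genes that this rule names are not reported here. Of 88 genes in the 9 lists of relatives and targets, 76 were in the table. Markers of 8 cell types were summed; of these, 1 of 7 endothelial and 1 of 5 macrophage markers was lower in artery, and 2 of 6 red blood cell and 1 of 3 gut and lung epithelium markers were higher. Lane is read from the library descriptions.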

Additional observations from a re-analysis of the deposited data

Results flagged for a closer look

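In 186 groups of 6 libraries (the 9 genes, the genes named beside them, ratios and marker sums), the highest or lowest library stood far from the others in 20, or 10.8%, where chance gives about 5%. The groups are not independent, since some genes were chosen for their likeness to the 9 over these same libraries. These shares therefore cannot be compared. Among the 9 genes this held for Hand1 in ventricle 2 (4.77, others 2.58 to 3.38). Other genes high in ventricle 2 were Lrrc10 (41.6), Fbxl22 (56.9), Ptges3l (22.4) and Cd59a (25.4), while Csf1r was low there (97.9). Lrrc10 was chosen for its likeness to Nkx2-5, Fbxl22 and Ptges3l to Hand2, and Cd59a to Hand1. A high library shared with those factors follows in part from that choice.

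Ventricle 4 was high for genes that were higher in artery: Fgf10 (2.10, others 0.579 to 1.11), Isl2 (0.213) and Pde9a (6.84). Isl2 was near the floor there, since 1 read is 0.0608 in ventricle 4 and all ventricle libraries together held 4 Isl2 reads. Pde9a was chosen for its likeness to Isl1 over these libraries, so it is no separate observation. Artery 4 was high for Aldh1a2, the retinoic acid enzyme of epicardium (228, others 80.4 to 94.0), and for the summed epicardial and mesothelial markers (3257). Artery 6 was high for the red blood cell marker sum (18819), Hba-a1 (6789) and Alas2 (116.8). Single values far from the rest were Nrg1 in artery 1 (3.70), Myh11 in artery 3 (581), the endothelial marker sum in artery 5 (709, low), Skap2 in ventricle 3 (16.1, low), and Ret (0.819) and Sftpc (6.06) in ventricle 6.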

How the results depend on the processing

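The 3 higher and 2 lower calls among the 9 genes held with other pseudocounts, filters and scalings, with lane as a term, by edgeR, DESeq2 and limma-voom, and without artery 1 and artery 4. For Gata4 the last takes out its highest artery values and so is no check. With litter as a replicate block the pairing gave 3619 genes past the test, 3 and 2 of the 9 genes, and changed no call among them. In that fit adjusted p was 0.000367 for Isl1, 0.00938 for Gata4, 0.00466 for Gata5, 0.0248 for Gata6 and 0.0105 for Nkx2-5 (limma). For the ratios, an exact test flipped the signs of the litter differences. Adjusted p was 0.0365 for each ratio that had passed and 0.375 for Nkx2-5 to heart muscle markers. The smallest p that 64 flips allow is 0.0313. Within lane 1, 321 genes passed, with 1 of the 9 higher and 0 lower; the differences were Gata4 -0.85, Gata5 0.98, Gata6 0.26 and Nkx2-5 -1.33. Within lane 2, 1334 genes passed, with 1 higher and 0 lower; they were Gata4 -0.76, Gata5 0.94, Gata6 0.31, Nkx2-5 -1.26 and Mef2c 0.024. Fewer libraries enter these fits.

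Leaving out 1 library or litter gave 2066 (without litter 3) to 4284 genes past the test, 2 to 3 of the 9 higher and 1 to 2 lower. Ranges were Gata6 0.27 to 0.33, Nkx2-5 -1.31 to -0.91 and Mef2c -0.17 to 0.028; Mef2c was 0.028 without litter 1, 0.020 without artery 1 and, leaving out artery 1 with artery 4, 0.0052. The cause was not tested. The ratio of Nkx2-5 to heart muscle markers was 0.071 with a pseudocount of 5. Counts of pathway genes, an alternative chosen after seeing the data, were 11 higher with a mean of at least 5, 1 higher and 1 lower within lane 1, 12 and 3 within lane 2, 16 lower without artery 1 and artery 4 and 5 lower by edgeR. They ran from 3 to 15 lower over the omissions, with 6 without artery 3, 4 without artery 5, 5 without ventricle 1 or 2, 6 without ventricle 3, 3 without litter 3 or 5 and 4 without litter 6. Red blood cell calls ranged from 0 to 3 (4 with the litter block) and gut and lung epithelium calls from 0 to 1. Depth limits Eya1 (5 to 23 reads in artery, 4 to 14 in ventricle) and ventricle Isl1 (6 to 48 reads).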
